A study of Mus musculus with 6 samples.

Results

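The Hedgehog pathway genes Gli1, Gli2, Gli3, Ptch1, Smo, Sufu and Hhip were followed by RNA sequencing in the EL4 line of mouse T-lymphoma cells. They were found in the count table by gene symbol, and all 7 were present among its 51912 gene rows. Each of 3 libraries came from wild-type EL4 cells kept for 24 h with vehicle, and each of another 3 from wild-type EL4 cells kept for 24 h with 10 µM RGFP966, a compound that inhibits HDAC3, a histone deacetylase. The latter are called the treated libraries. The cells are 1 established line, and nothing in the labels ties each library to a culture of its own, so p-values measure only the spread between these libraries. The set was chosen by pathway and symbol, and selected on the RGFP966 against vehicle values, which were known, Gli1 being among the larger rises. The values of these 7 genes in that comparison are therefore a description and carry no test here.

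Hedgehog ligands are secreted proteins that bind the receptor Patched, encoded by Ptch1. Patched without ligand restrains Smoothened, the membrane protein encoded by Smo, and bound Patched releases it. Active Smoothened frees the zinc finger transcription factors Gli1, Gli2 and Gli3 from Sufu, a cytoplasmic inhibitor, at the primary cilium in most cells. Gli2 and Gli3 are usually present before the signal, whereas Gli1, Ptch1 and Hhip, which encodes a decoy that binds the ligands, are themselves transcribed when the pathway is active. In the thymus the pathway is known for its part in the early development of T cells.

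Library totals ran from 12935443 to 16451017 counts, with a mean 13.3% lower after RGFP966 (p = 0.1 in a two-sided exact permutation test, as low as 3 against 3 can go). T-cell markers checked the label: 13 of 14 had a mean of at least 1 CPM, the usual measure of a gene's counts relative to its scaled library total. Their summed level was between 2870 and 2900 CPM in vehicle and between 2980 and 3040 CPM in treated libraries. The extraction text of the labels speaks of retinas, but the 12 retina markers together reached only 4.34 to 4.95 CPM over all libraries, and Gnat1, Crx, Opn1mw and Rpe65 had 0 counts in every library. In bulk RNA, fewer cells that express a gene and less RNA per cell cannot be told apart.

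Of the 7 genes, 4 were detected and 3 were not. Gli1, Ptch1, Smo and Sufu had counts in every library and passed the filter on low counts. Gli2, Gli3 and Hhip had 0 counts in all 6 libraries. With 3 counts as the limit that a count of 0 allows, their level could be up to 0.182 to 0.232 CPM, depending on the library, which covers counting error only. Of the 4 genes that passed the filter, 1 was called higher and 1 was called lower at a Benjamini-Hochberg adjusted p under 0.05 in edgeR. The same call was made for 23.3% of all 13484 genes tested, 11.4% higher and 11.9% lower, and nothing is read from the count of members. The groups did not overlap for 2 of the 4, Gli1 and Smo, as for 36.3% of all genes tested. Over all genes the split was 1543 higher and 1602 lower, and it became 1838 higher and 1270 lower with upper-quartile scaling.

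Gli1, the transcription factor that is also a readout of the pathway in many tissues, was the member with the largest difference. Its gene (ENSMUSG00000025407) lies on chromosome 10, from 127329882 to 127341974 on the minus strand of GRCm38. Vehicle libraries 1 to 3 held 63, 51 and 49 Gli1 counts, which are 4.10, 3.12 and 3.13 CPM. Treated libraries 1 to 3 held 129, 107 and 122 counts, which are 9.47, 8.29 and 8.16 CPM. Every treated library was above every vehicle library, although their totals were lower. The mean was 3.45 ± 0.565 CPM (SD, n = 3) in vehicle and 8.64 ± 0.719 CPM after RGFP966, a log2 ratio (log2 fold change, RGFP966 to vehicle) of 1.32 ± 0.17 (SE), or 2.50-fold.

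Gli1 was chosen with this rise known, so its rank among other genes is a description only. Of all genes tested, 66 had a larger log2 ratio than Gli1. Among the 2009 tested genes with a mean between 3.02 and 12.1 CPM, a band from 2-fold below to 2-fold above Gli1, 9 did, and the median log2 ratio in that band was 0.06. In level Gli1 was a low transcript, and 9741 tested genes had a higher mean CPM over the 6 libraries.

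**Figure D1:**
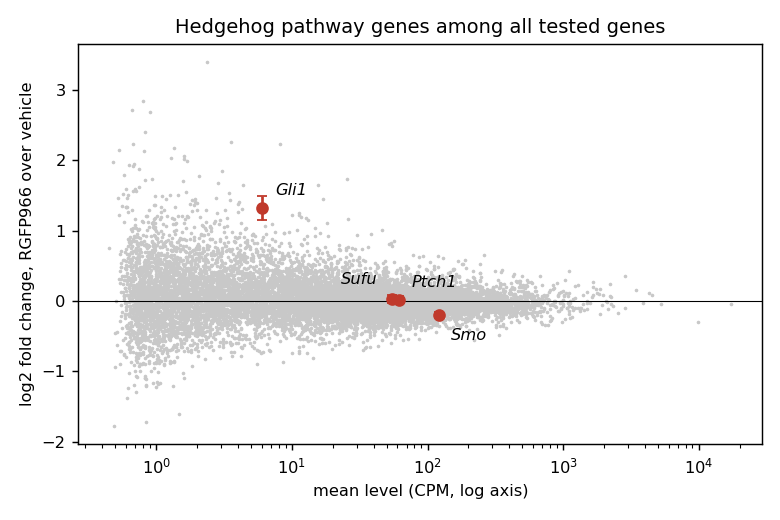
Each grey point is a tested gene, with its mean level in CPM on a log axis and its log2 ratio of RGFP966 over vehicle on the vertical axis; red points are the 4 expressed Hedgehog genes and bars are the SE. Gli1, at 1.32, stands above most genes of its level, Smo at -0.19 below the zero line, and Ptch1 and Sufu on it.

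Gli2 and Gli3 encode the other members of its family, and the DNA-binding zinc fingers are a part that they share. The 90-base window of the Gli1 coding sequence that, within 1 exon of each gene, has the highest summed identity to both is shown to compare the 3 genes in 1 place. Taken singly and across exon borders, the best windows reached 92.2% identity with Gli2 and 86.7% with Gli3. It lies in exon 11 of 13 of Gli1, at chr10:127333691-127333780 on the minus strand. The matching stretch of Gli2 lies in exon 12 of 14, at chr1:118842090-118842179 on the minus strand, and that of Gli3 in exon 13 of 15, at chr13:15720073-15720162 on the plus strand (GRCm38, GENCODE M21, coding strand, 5′ to 3′). Capitals mark the bases that differ from Gli1.
Gli1: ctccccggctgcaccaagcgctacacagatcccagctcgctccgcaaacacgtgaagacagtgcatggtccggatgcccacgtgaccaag
Gli2: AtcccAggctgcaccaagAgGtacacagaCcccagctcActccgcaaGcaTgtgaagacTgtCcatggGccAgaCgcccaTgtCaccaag
Gli3: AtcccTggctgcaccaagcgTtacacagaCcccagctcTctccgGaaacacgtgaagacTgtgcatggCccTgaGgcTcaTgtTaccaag

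In this window Gli2 differs from Gli1 at 15 bases and Gli3 at 13. The longest run of identical bases in the whole coding sequence was 23 between Gli1 and Gli2 and 14 between Gli1 and Gli3. No 50-base word of the Gli2 transcripts occurs in any other annotated gene, and 4.51% of those of Gli1 do, Gm47200 sharing most of them. With Gli2 and Gli3 both at 0 counts, the family's counts in these cells were those of Gli1 alone.

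Of the genes that overlap Gli1 or lie next to it, only Arhgap9 had enough counts to be tested, and it was not called. Arhgap9, which encodes a GTPase-activating protein of blood cells, runs towards Gli1 on the other strand, and 62 bases of their exons overlap, 1.24% of those of Gli1. It measured 51.8 ± 1.27 CPM (SD, n = 3) in vehicle and 53.5 ± 1.36 CPM in treated libraries, a log2 ratio of 0.05 ± 0.06 (SE, adjusted p = 0.633). The antisense gene Gm47200, which overlaps 5.31% of the Gli1 exons, had 0 counts in every library, as did Inhbe, the nearest gene on the other side. Gm6283, a processed pseudogene and the nearest gene beyond Arhgap9, held 1 count in 1 library. Beyond it, 2 protein-coding genes given here after their values were seen both fell. Mars, which encodes the methionyl-tRNA synthetase, fell from 152.5 to 134.6 CPM (log2 ratio -0.18 ± 0.05 SE, adjusted p = 2.30e-03), and was not called without vehicle library 3 (-0.11, adjusted p = 0.0901). Ddit3, the gene of the stress-response factor CHOP, fell from 17.9 to 14.2 CPM (-0.33 ± 0.10, adjusted p = 0.0140). It was not called without vehicle library 3 (0.0781) or treated library 2 (0.0772) or 3 (0.0926), or in the DESeq2 Wald test (0.0541). The labels do not state whether the counting used strand, so reads from the overlapped stretches cannot be assigned to a strand.

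In tissues, Gli1 is also known from stromal cells, so the fibroblast and stroma markers are given beside it. Of those 10, Col3a1 and Pdgfrb were at 0 in every library, and Col1a1 averaged 0.364 CPM in vehicle and 0.782 CPM in treated libraries (log2 ratio 1.12, adjusted p = 0.13). The list's summed level was 114 to 118 CPM in vehicle and 131 to 141 CPM in treated libraries, and Pdgfra, Fbln1 and Acta2 carried most of it. Pdgfra, the gene of a platelet-derived growth factor receptor, rose from 44.3 to 54.0 CPM (log2 ratio 0.29, adjusted p = 2.10e-04), the 1 call in the list. The part of these genes in the Gli1 difference was not tested.

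Smo, the gene of the signal transducer Smoothened, was the most abundant member and the 1 called lower. Its gene (ENSMUSG00000001761) lies on chromosome 6, from 29735503 to 29761365 on the plus strand. Vehicle libraries 1 to 3 measured 130.9, 123.4 and 131.7 CPM. Treated libraries 1 to 3 measured 117.3, 112.9 and 107.3 CPM. All treated libraries lay below all vehicle libraries, and the gap between the groups was smaller than the range within either. The mean moved from 128.7 ± 4.55 CPM (SD, n = 3) to 112.5 ± 5.02 CPM, a log2 ratio of -0.19 ± 0.05 (SE) or a difference of -12.6%. Of all genes tested, 2044 had a lower log2 ratio.

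Ptch1, which encodes the receptor and is a classical target of Gli proteins, was not called. Its gene (ENSMUSG00000021466) lies on chromosome 13, from 63508328 to 63573598 on the minus strand. Vehicle libraries 1 to 3 measured 61.3, 56.9 and 65.6 CPM, and treated libraries 1 to 3 measured 63.0, 60.6 and 61.7 CPM. All 3 RGFP966 values fell inside the range of the vehicle values. The log2 ratio was 0.01 ± 0.06 (SE), from a mean of 61.2 ± 4.37 (SD, n = 3) to 61.8 ± 1.24 CPM.

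Sufu, the gene of the cytoplasmic inhibitor of Gli proteins, was not called either. It lies on chromosome 19 (ENSMUSG00000025231), from 46396896 to 46488804 on the plus strand. Vehicle libraries 1 to 3 measured 56.0, 49.5 and 56.1 CPM, and treated libraries 1 to 3 measured 57.7, 53.2 and 54.1 CPM. The groups overlapped, and the log2 ratio was 0.03 ± 0.06 (SE). Sufu had a mean of 53.9 ± 3.80 CPM (SD, n = 3) in vehicle and 55.0 ± 2.42 CPM in treated libraries.

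**Figure D2:**
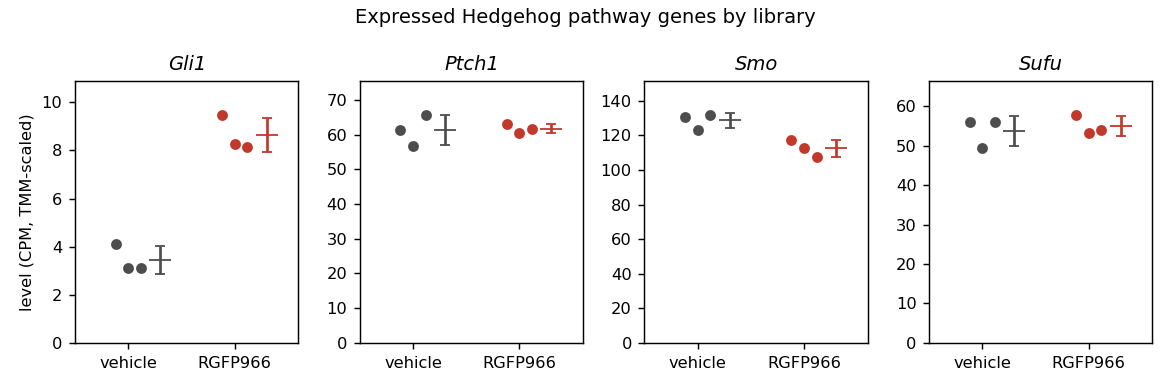
Points are the 6 libraries and the bars beside them the mean and SD of each group of 3, as CPM from 0, with a separate scale for each gene. Gli1 separates the groups, at 3.12 to 4.10 CPM against 8.16 to 9.47 CPM; Smo separates them downwards, and the groups of Ptch1 and Sufu overlap.

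The undetected members are spread over the genome. Gli2 (ENSMUSG00000048402) lies on chromosome 1, from 118834132 to 119053619 on the minus strand, and Gli3 (ENSMUSG00000021318) on chromosome 13, from 15463235 to 15730026 on the plus strand. Hhip (ENSMUSG00000064325), the gene of the ligand-binding decoy, lies on chromosome 8, from 79965851 to 80058006 on the minus strand. No annotated gene covers more than 1.96% of the exons of any of them.

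Levels of different genes were compared per kilobase of exon, as RPKM (CPM divided by exonic length in kilobases). Smo was highest, at 22.9 ± 0.810 RPKM (SD, n = 3) in vehicle and 20.02 ± 0.893 RPKM in treated libraries. Sufu followed, at 7.002 ± 0.494 and 7.15 ± 0.314 RPKM, then Ptch1, at 4.32 ± 0.308 and 4.35 ± 0.0873 RPKM. Gli1 was lowest, at 0.691 ± 0.113 and 1.73 ± 0.144 RPKM. The order was the same in all 6 libraries, and no neighbours in it overlapped. Exonic length joined the exons of all annotated transcripts of a gene. That length was the same for every library, so agreement between libraries cannot check it. Within a library, the Ptch1 level was 5.26 to 7.38 times that of Gli1 in vehicle and 2.34 to 2.66 times in treated libraries. The Smo level was 28.4 to 37.4 times that of Gli1 in vehicle and 11.0 to 12.1 times in treated libraries. The ratio of Sufu to Ptch1 stayed between 1.58 and 1.69 in every library.

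**Figure D3:**
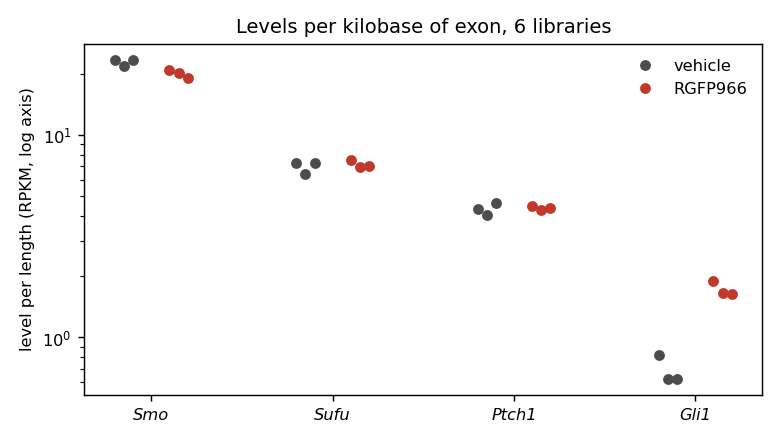
Points are the level of each expressed gene in the 6 libraries, in RPKM on a log axis, vehicle in grey and RGFP966 in red. Smo lies near 20 RPKM, and Gli1 lies lowest in both groups, at 0.691 RPKM on average in vehicle and 1.73 RPKM after RGFP966.

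The genes that varied most like each member over the 6 libraries were listed as a description, by Pearson's r of log2 CPM among 9337 named genes of at least 5 CPM. For Gli1 they were Pcyt1b, a gene of phospholipid synthesis (r = 0.999), Lbhd1 (r = 0.998) and the MHC class I gene H2-K1 (r = 0.997). Pcyt1b rose from 9.67 to 19.8 CPM (log2 ratio 1.03, adjusted p = 2.25e-10). The 6 libraries fall into 2 groups that Gli1 separates, and 323 genes had an r over 0.95. For Smo they were Brd1, Grk2 and Med16, with r between 0.993 and 0.995, and 163 genes were over 0.95. For Ptch1 they were Spib, Gtf3c1 and Fryl, and for Sufu Abcf1, Ksr1 and Nol9, each with 18 genes over 0.95. Over 6 libraries, an r this high can arise by chance among 9337 genes, and this was not tested.

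The other genes of the pathway were taken from lists written from general knowledge of it, with earlier results of these data known. Their calls are therefore given as a description. Of 141 such genes in the table, 27 had 0 counts in every library and 18 more were removed by the filter. Of the 96 tested, 10 rose and 10 fell, which is 20.8%, beside 23.3% of all genes. Their median log2 ratio was 0.00479, beside -0.00186 for all genes tested. The lists follow in the order of the pathway.

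Ligand transcripts were absent or near the limit of detection. Shh and Dhh, which encode Sonic and Desert hedgehog, had 0 counts in all 6 libraries. Ihh, the gene of Indian hedgehog, had 1 count in each vehicle library and 2, 6 and 1 counts in treated libraries 1 to 3, too few to be tested. Disp1, which encodes a transporter that releases the lipid-bearing ligand from the cell, was the only 1 of the 9 ligand, processing and release genes that passed the filter. It measured 31.8 ± 0.922 CPM (SD, n = 3) in vehicle and 32.8 ± 1.58 CPM in treated libraries (log2 ratio 0.05 ± 0.07 SE, adjusted p = 0.706).

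Among receptors, coreceptors and membrane modulators, 9 of 15 were tested. Of these, 0 rose and 1 fell in edgeR (11.1%, beside 23.3% of all genes tested), with a median log2 ratio of 0.07. Without vehicle library 2 the rises numbered 3. Grk2, the gene of a receptor kinase that phosphorylates active Smoothened, fell from 199.1 ± 5.98 (SD, n = 3) to 178.8 ± 5.13 CPM (log2 ratio -0.16 ± 0.04 SE, adjusted p = 3.17e-03). Of the coreceptors that help Patched bind ligand, Boc and Gas1 had 0 counts in every library, while Cdon, chosen after its values were seen, measured 10.9 CPM in vehicle and 12.7 CPM in treated libraries (0.22 ± 0.11 SE, adjusted p = 0.17). Gpr161, a ciliary receptor that restrains the pathway, had 2 counts in 1 vehicle library, 1 count in 1 treated library and 0 in the others. Mosmo, whose product lowers Smoothened at the cell surface, measured a log2 ratio of 0.12 (adjusted p = 0.144). It passed the threshold without vehicle library 2, at 0.18 (adjusted p = 0.0364), and after thinning to the lowest total (0.0487), in a range up to 0.373.

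All 36 genes listed as kinases, ubiquitin ligases or partners of Gli proteins were tested. Of these, 5 rose and 4 fell (25%, beside 23.3% of all genes tested), with a median log2 ratio of -0.01. The rises numbered 3 without vehicle library 1 or treated library 2, and the falls 2 without treated library 2 or 3. The largest rise was that of Tubb3, which encodes a neuronal beta tubulin and is not an established regulator of Gli, from 38.5 ± 1.35 (SD, n = 3) to 55.8 ± 2.84 CPM (log2 ratio 0.53 ± 0.06 SE, adjusted p = 2.19e-09). Skp1a, a core subunit gene of the ubiquitin ligase that trims Gli3, rose from 437.4 to 532.2 CPM (0.28 ± 0.04, adjusted p = 3.72e-08). Spop, which encodes the adaptor through which Gli2 and Gli3 are sent to the proteasome, rose from 96.2 to 111.6 CPM (0.21 ± 0.05, adjusted p = 4.98e-04). Hdac1, the gene of a deacetylase that acts on Gli1, rose from 258.0 to 282.4 CPM (0.13 ± 0.04, adjusted p = 0.0103). The call of Hdac1 was lost without vehicle library 1 (0.0686) or treated library 2 (0.117), and 35.5% of its 50-base words occur in other annotated genes, Gm10093 most. Csnk1e, a casein kinase gene chosen after its values were seen, rose from 16.5 to 19.8 CPM (0.27 ± 0.09, adjusted p = 0.0337). The Csnk1e call was lost in 7 of 15 alternatives, with no filter (0.0548), in the DESeq2 Wald test (0.0873), and without vehicle library 1, 2 or 3 (0.0747, 0.0505 and 0.0834) or treated library 1 or 2 (0.194 and 0.0756). Prkar1a and Csnk1a1, genes of the protein kinase A and casein kinase branches that phosphorylate Gli proteins, measured -0.05 (adjusted p = 0.346) and 0.04 (adjusted p = 0.455).

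Of the falls in that list, 2 involve chromatin proteins. Smarcb1, the gene of a chromatin remodeller subunit that binds Gli1, fell from 80.9 ± 0.847 (SD, n = 3) to 71.0 ± 2.68 CPM (log2 ratio -0.19 ± 0.05 SE, adjusted p = 3.94e-03). Sin3a, a corepressor scaffold gene, fell by 0.18 (adjusted p = 3.28e-03), with an adjusted p = 0.078 without treated library 3. Kctd6, whose product directs deacetylase turnover, fell from 7.69 to 5.58 CPM (-0.46 ± 0.15, adjusted p = 0.0212). That call was lost without vehicle library 1 (0.123), treated library 2 (0.0566) or treated library 3 (0.0935) and in the DESeq2 Wald test (0.0701). Ulk3, a kinase gene, fell by 0.21 (adjusted p = 0.0483), but was not called in 13 of 15 alternatives, whose adjusted p ran from 0.0332 to 0.183. Among those 13 were all settings that left out 1 library except the one without treated library 3. Kif7, which encodes the ciliary kinesin that organises Gli proteins, measured 15.8 and 18.5 CPM (0.23 ± 0.10, adjusted p = 0.0747), with an adjusted p from 0.0307 after thinning to 0.305 over its alternatives.

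Of the 40 cilium genes in the table, 34 were tested. Among these, 2 rose and 2 fell (11.8%, beside 23.3% of all genes tested), with a median log2 ratio of 0.04. The rises numbered 4 without vehicle library 2 and 1 without vehicle library 1, and the falls 1 without vehicle library 1 or treated library 1 or 2. Ift140 and Ttc21b, both of the complex that carries cargo back from the tip of the cilium, rose from 33.5 ± 1.03 (SD, n = 3) to 43.1 ± 5.18 CPM (log2 ratio 0.36 ± 0.07 SE, adjusted p = 1.52e-04) and from 47.5 ± 2.43 to 54.9 ± 0.735 CPM (0.21 ± 0.06, adjusted p = 7.14e-03). Ttc21b was not called without vehicle library 1 (0.0598). Ift27, of the complex that carries cargo to the tip, fell from 37.3 to 30.95 CPM (-0.27 ± 0.07, adjusted p = 3.62e-03). Tctn1, of the gate at the base of the cilium, fell by 0.30 (adjusted p = 0.0436), with 23.9% of its words shared with other genes, Hvcn1 most. It was called in 5 of 15 alternatives, with an adjusted p from 0.035 to 0.239, and lost its call without vehicle library 1 or 2 (0.166 and 0.0792) or treated library 1 or 2 (0.0763 and 0.239). The most abundant cilium genes that were not called were Kif3b (-0.13, adjusted p = 0.0831) and Ift52 (-0.10, adjusted p = 0.24). Kif3b passed without vehicle library 2, at an adjusted p = 0.0339.

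Genes described as Gli targets in other tissues were called in both directions. Of 33, 14 had 0 counts in every library, among them the neural tube genes Nkx2-2, Nkx6-1 and Olig2, and 12 were tested. Of those 12, 2 rose and 2 fell (33.3%, beside 23.3% of all genes tested), with a median log2 ratio of 0.04. The rises numbered 1 without vehicle library 2 or 3 or treated library 1 or 2, and the falls 1 without vehicle library 1 or treated library 3. Prdm1, the gene of the repressor Blimp-1, had 4, 13 and 13 counts in vehicle libraries 1 to 3 and 23, 26 and 23 counts in treated libraries 1 to 3 (log2 ratio 1.45 ± 0.38 SE, adjusted p = 3.14e-03). Its level went from 0.629 ± 0.319 (SD, n = 3) to 1.75 ± 0.243 CPM. Spp1, which encodes the secreted protein osteopontin, rose from 3.34 to 4.90 CPM (0.55 ± 0.20, adjusted p = 0.0368). The Spp1 call was lost without vehicle library 2 or 3 (0.0582 and 0.17) or treated library 1 or 2 (0.109 and 0.131), with no filter (0.0523) and in the DESeq2 Wald test (0.0954).

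The cell cycle and survival targets were abundant and differed little. Bmi1, a Polycomb gene, fell from 224.2 to 195.7 CPM (log2 ratio -0.20 ± 0.04 SE, adjusted p = 1.23e-04), and Foxm1, a transcription factor gene of mitosis, fell by 0.14 (adjusted p = 9.91e-03). Foxm1 was not called without vehicle library 1 (0.0532) or treated library 3 (0.0682), and 16.7% of the Bmi1 words occur in other genes, Gm5946 most. Ccnd1 and Ccnd2, the genes of cyclins D1 and D2, measured log2 ratios of -0.01 (adjusted p = 0.908) and -0.08 (adjusted p = 0.145). Of the Ccnd1 words 21.6% occur in other genes, LTO1 most, and Ccnd2 passed without vehicle library 2 (0.0149). Bcl2, an anti-apoptotic gene, measured 152.1 ± 2.60 CPM (SD, n = 3) in vehicle and 151.6 ± 4.76 CPM in treated libraries (-0.00 ± 0.04 SE, adjusted p = 0.962). Cdk6, a G1 kinase gene, measured a log2 ratio of 0.08 (adjusted p = 0.112). It passed with upper-quartile scaling (0.0248), with total count alone (0.0372) and at a minimum mean of 5 CPM (0.0399).

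The Zic and Glis genes encode zinc finger factors whose DNA-binding part resembles that of Gli proteins. Zic1, Zic4 and Glis3 had 0 counts in every library. Of the 4 tested, 1 rose and 1 fell (50%, beside 23.3% of all genes tested), with a median log2 ratio of -0.07. The falls numbered 2 without treated library 2. Glis1 had 17, 17 and 14 counts in vehicle libraries 1 to 3 and 37, 32 and 28 counts in treated libraries 1 to 3. Its level rose from 1.01 ± 0.109 (SD, n = 3) to 2.36 ± 0.434 CPM (log2 ratio 1.20 ± 0.31 SE, adjusted p = 2.67e-03). The groups did not overlap, as for 36.3% of all genes tested. Zic2 fell from 28.7 ± 0.652 to 23.4 ± 1.24 CPM (-0.30 ± 0.08 SE, adjusted p = 3.73e-03). Zic5 measured 25.8 CPM in vehicle and 22.2 CPM in treated libraries and was not called (-0.21 ± 0.08, adjusted p = 0.0589). It passed without treated library 2 (-0.28, adjusted p = 0.0235) and after thinning (0.0334). Glis2 measured 0.08 ± 0.25 (adjusted p = 0.865).

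**Figure D4:**
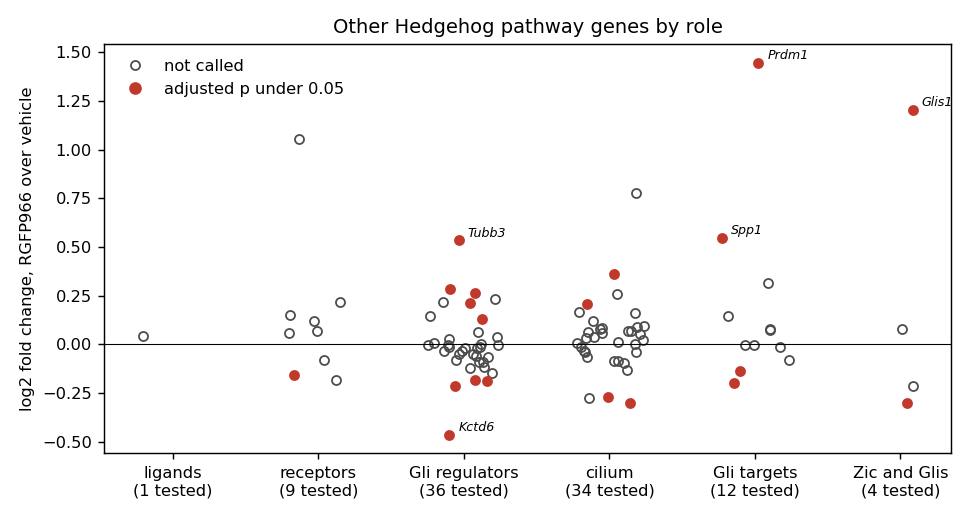
Each point is a tested pathway gene, placed by its role, with its log2 ratio of RGFP966 over vehicle; filled points were called at an adjusted p under 0.05. Most points lie near 0, and the called genes Prdm1 (1.45) and Glis1 (1.20) stand highest.

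Promoter sequence was searched for the letters of the Gli binding motif. The window from 250 bases before to 50 bases after the start was taken for each gene from RefSeq (GRCm38.p6), and 6 of the 7 members matched; Gli1 did not. Neither the 9-base motif TGGGTGGTC nor its 8-base core GGGTGGTC, on either strand, occurs in the windows of Gli2, Gli3, Hhip, Ptch1, Smo or Sufu. Only exact matches were sought. The Ptch1 window, at chr13:63565686-63565985 on the minus strand, lies inside the gene, whose annotated 5′ end is at 63573598. That end was not searched, so Gli sites there or elsewhere in Ptch1 are not covered. Of all 32851 promoter windows, 0.253% hold the 9-base motif and 0.807% the core, which lies within it. The 6 windows were rich in G and C, from 56.3% in Sufu to 76.3% in Ptch1, beside a median of 52.7% over all windows.

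**Figure D5:**
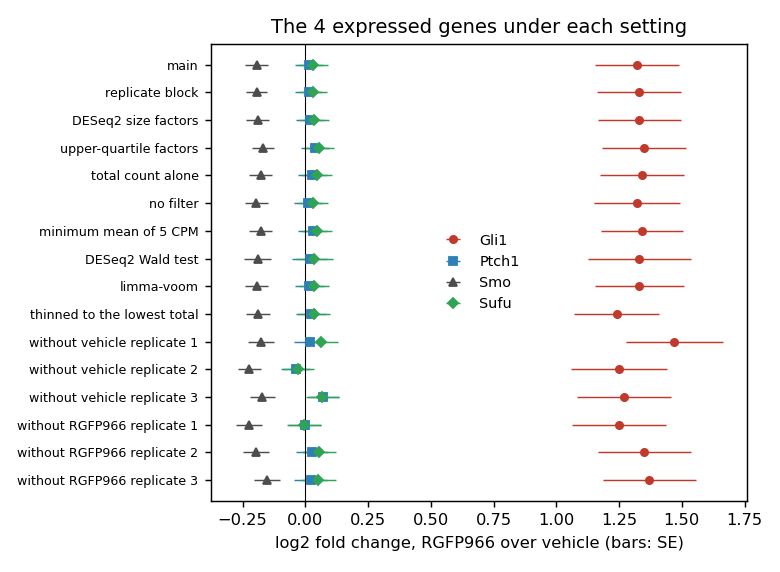
Each row is 1 way of processing the counts, with the log2 ratio of RGFP966 over vehicle and its SE for the 4 expressed genes. Gli1 stays between 1.24 and 1.47 and Smo between -0.23 and -0.15 in the 15 alternatives, while Ptch1 and Sufu lie on either side of 0.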

How the data were processed

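RNA sequencing read counts of 6 EL4 libraries were used, 3 from vehicle and 3 from RGFP966. The authors deposited raw counts, 1 column per library, for 51912 Ensembl gene IDs. The submitters' processing notes name mm10 as the build and, with no role or order, HTSeq 0.6.0, HISAT2 2.1.0, Bowtie2 2.2.3, TopHat2 and CASAVA. Neither the annotation release nor whether counting used strand is stated in them. The members and lists were chosen with earlier results of these data known. The list entry Talpid3 matched no symbol.

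Counts of all libraries were fitted in edgeR 4.0.16 (R 4.3.3) with group as the only term, filterByExpr defaults, trimmed mean of M values scaling and the robust quasi-likelihood test. Benjamini-Hochberg adjustment ran over all 13484 tested genes. SE was taken as the size of the log2 ratio divided by the root of F. Positions, exonic lengths and overlaps came from GENCODE M21 (GRCm38). Alternatives were a replicate block, other scalings and filters, thinning, DESeq2 1.42.0, limma 3.58.1 voom and leaving out each library. Named were the 7 members; in each list up to 4 called genes per direction of smallest adjusted p and the 2 most abundant tested genes not called; Shh, Ihh, Dhh, Ccnd1, Ccnd2, Bcl2, Kif7 and Gpr161; the genes overlapping or next to Gli1; and the 3 genes most like each member. Some genes that this rule takes are not reported here. On simulated counts for this comparison (13286 genes) 90% of 50 genes raised by a log2 fold of 1 and 68% of 50 raised by 0.5 were called. There 13087 of the genes were left unchanged, whereas 23.3% of all genes tested were called in the real counts. The simulated shares therefore need not hold for the real counts.

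Marker lists covered T cell, retina, fibroblast and stroma, epithelium, B cell and macrophage genes. Over all libraries the summed level of the last 3 lists reached at most 2.07, 3.19 and 13.7 CPM, with Epcam, Ms4a1 and Adgre1 at 0 counts.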

Additional observations from a re-analysis of the deposited data

How the results depend on the processing

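Gli1 was called higher and Smo lower in all 15 alternatives, and Ptch1 and Sufu in none. The alternatives draw on the same 6 libraries, whose values were known when the members were chosen. For the members they therefore describe dependence on processing only. The log2 ratio of Gli1 ran from 1.24 to 1.47 and that of Smo from -0.23 to -0.15. Genes called over the whole table ran from 1139 to 1838 higher and from 1116 to 1764 lower, and pathway genes called from 7 to 14 higher and 7 to 13 lower. Of 25 named genes that were called, 4 of them chosen after their values were seen, 14 kept their call in every alternative in which they were tested, 11 lost it in at least 1, and 0 changed sign; the cause of the losses was not tested. Same-numbered libraries did not deviate together (correlations over 13484 genes of -0.0182, 0.0132 and 0.00842). Not every library correlated best with its own number. With 3 libraries per group, such correlations cannot settle whether the numbers pair the samples. With the replicate block 3431 genes were called, 3139 of them among the 3145 without it, and among the named genes reported here it changed only the call of Zic5 (adjusted p = 0.0448), which passed with it. Counts of low genes (Gli1, Prdm1, Glis1) limit the precision of their fold changes.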
